A study of Mus musculus with 10 samples.

Results

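The genes described here are 10 members and close companions of the AP-1 family of transcription factors: Fos, Fosb, Fosl1, Fosl2, Jun, Junb, Jund, Atf3, Egr1 and Ier3. They were taken by name: every gene probe whose accession RefSeq assigns to one of these symbols, which gave 13 probes, and all 10 genes were among the 14508 genes tested. RNA was measured on 10 one-colour long-oligonucleotide arrays, 7 of colon tumors and 3 of adjacent normal colon epithelium, from 3 CYP1A-humanized mice aged 16 weeks. Each animal contributed 1 array of normal epithelium; 3 of the tumors came from mouse 41, 3 from mouse 42 and 1 from mouse 43, so the 7 tumors share 3 animals. All 3 mice, and so the normal samples too, were fed AIN93M diet and received 2 doses of PhIP (100 mg/kg, a carcinogen formed in cooked meat) by gavage at 6 weeks of age. They then drank 1.5% DSS, which injures the colon lining and causes colitis, for 1 week and were kept for 8 more weeks. The tumors are labelled as tubular adenomas with a dominant active mutant of Ctnnb1, the gene of β-catenin, and the normal samples as wild type for it. No colon of an untreated mouse was analysed here. Mouse 42 was female and mice 41 and 43 were male.

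AP-1 is a dimer of basic leucine zipper proteins. Fos proteins bind DNA only with a partner, usually a Jun protein, while Jun proteins also pair with each other and with ATF proteins such as Atf3. Many of these genes are immediate-early genes, which are transcribed within minutes of a growth factor, cytokine or stress signal without new protein synthesis, and whose transcripts are short-lived. In the intestine, growth factor, wound and inflammatory signals induce them, and in human colorectal cancer cells JUN and FOSL1 were described as targets of β-catenin and TCF.

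All 10 genes had a probe above background on all 10 arrays. In the tumors, 6 of the 10 were higher than in normal epithelium (Ier3, Jun, Atf3, Egr1, Fosl1 and Junb), against 25.8% of all genes tested. Fos alone of the 10 was lower, against 23.8% of all genes. The remaining 3, Fosb, Fosl2 and Jund, did not pass the test. A gene passed at an adjusted p under 0.05 in limma, with the mouse as a block and Benjamini-Hochberg adjustment over the 14508 genes. Nearly as many genes as not passed in these samples (49.6%), so the 7 of 10 that did are to be read against that share. At least 2-fold higher among the genes that passed were Ier3 and Jun, against 5.98% of all genes, and 0 of the 10 were at least 2-fold lower, against 5.42%. The tumor and normal arrays did not overlap for 4 of the 10 genes, against 41.4% of all genes, so this share is near the background. The median tumor minus normal difference of the 10 genes was 0.32 on the log2 scale, beside 0.0078 for all genes tested, and their median absolute difference was 0.49, beside 0.28.

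Levels are given as normalized log2 intensity, and differences as tumor minus normal on that scale with the standard error (SE) of the fit. Each probe has its own scale, so levels are compared between arrays and not between genes. The precision of each value is limited by the number of arrays, and the tumors of a mouse need not vary as tumors of separate mice would. With the mouse as a block, leaving out the only normal sample of a mouse also takes the tumors of that mouse out of the contrast. The difference is then the same as without that mouse, so some of the 29 alternatives tried for each gene give the same value.

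**Figure D1:**
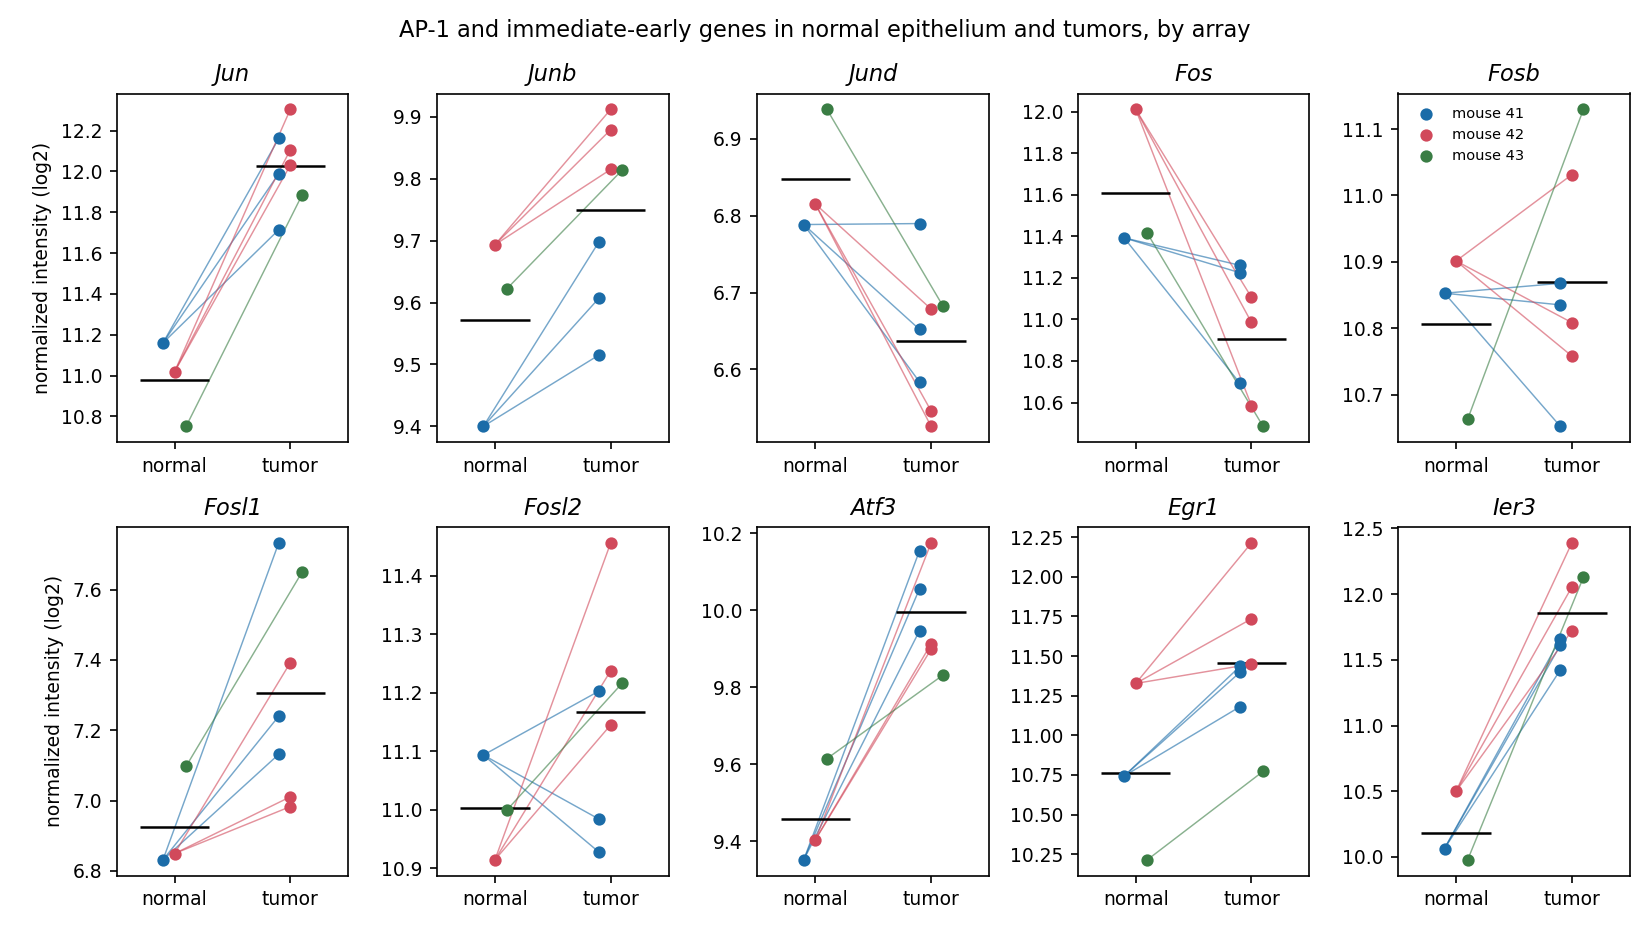
Normalized log2 intensity of each of the 10 genes (vertical axis, a scale of its own for each gene) in the 3 normal and 7 tumor samples. Points are arrays coloured by mouse, thin lines join each tumor to the normal sample of its mouse, and black bars are group means. For Ier3, Jun and Atf3 all tumors lie above all normal samples, and for Fos all lie below, while the 2 tissues overlap for the other genes.

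Of the 3 Jun genes, Jun had the largest difference. Jun (probe mMC001871) encodes c-Jun, the main partner of Fos and a target of the JNK kinases. Its log2 intensity in the normal samples of mice 41, 42 and 43 was 11.16, 11.02 and 10.75, and in the tumors it ran from 11.71 through a median of 12.03 to 12.30. Every tumor lay above every normal sample. Non-overlap in that direction was found for 3 of the 10 genes (Jun, Atf3 and Ier3), against 21.4% of all genes tested. Jun was 1.00 ± 0.12 higher in tumors (SE, 7 tumors and 3 normals; 2.01-fold; limma adjusted p = 0.000188). Its 95% confidence interval ran from 0.74 to 1.27. The tumors exceeded their own mouse's normal sample by 0.55 to 1.00 in mouse 41, by 1.01 to 1.29 in mouse 42 and by 1.13 in mouse 43.

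Junb, which can stand in for or restrain c-Jun depending on the promoter, was measured by probe mMC021918. The normal samples read 9.40, 9.69 and 9.62 in mice 41, 42 and 43, and the tumors 9.52 to 9.91 with a median of 9.81. The groups overlapped, although each of the 7 tumors lay above the normal sample of its own mouse, as was so for 6 of the 10 genes and for 26.9% of all genes. The difference was 0.19 ± 0.07 (1.14-fold; limma adjusted p = 0.0448). This call did not survive leaving out any of 8 of the 10 arrays, with values from 0.17 to 0.21 and adjusted p from 0.0378 to 0.143 over the 10.

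Jund, the Jun protein most often present in resting cells, gave dim signals from 6.79 to 6.94 in the normal samples and from 6.53 to 6.79 in the tumors. In 6 of the 7 tumors it was below the normal sample of the same mouse. The difference of -0.19 ± 0.08 missed the threshold (limma adjusted p = 0.064; 95% interval -0.37 to -0.019). It passed without tumor 2 of mouse 41, at -0.22 with an adjusted p of 0.0438.

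Fos (probe mMC013536) encodes c-Fos, the founding Fos protein. Its log2 intensity in the normal samples was 11.39 in mouse 41, 12.01 in mouse 42 and 11.41 in mouse 43. The tumors read 10.69, 11.22 and 11.26 in mouse 41, 10.59, 11.11 and 10.99 in mouse 42, and 10.49 in mouse 43. All 7 tumors were below all 3 normal samples, which was so for 1 of the 10 genes and for 20% of all genes tested. Each tumor was below the normal sample of its own mouse, as for 25.4% of all genes. Tumors 2 and 3 of mouse 41 came closest to a normal sample, and the normal sample of mouse 42 stood highest.

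Fos was lower in tumors by 1.71-fold, a difference of -0.78 ± 0.19 (limma adjusted p = 0.00807), with a 95% interval from -1.21 to -0.35. The mean difference was -0.33 in mouse 41, -1.12 in mouse 42 and -0.93 in mouse 43. Fos lost its call without the normal sample of mouse 42, which also takes the 3 tumors of that mouse out of the contrast (-0.57, adjusted p = 0.0825). Over 29 alternatives it stayed below 0, from -1.09 to -0.33, with adjusted p from 0.00365 to 0.439.

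None of the other 3 Fos genes passed as lower in tumors. Fosl1 (probe mMC018005) encodes Fra-1, a Fos protein without the transactivation domain of c-Fos that is often raised in invasive tumor cells. It was dim, at 6.83, 6.85 and 7.10 in the normal samples of mice 41, 42 and 43 and at 6.98 to 7.73 with a median of 7.24 in the tumors. Each tumor lay above the normal sample of its own mouse, but the groups overlapped, since the normal sample of mouse 43 was above the lowest tumors.

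Fosl1 was 0.44 ± 0.15 higher (1.36-fold; limma adjusted p = 0.0336). The call was lost without any one of the 3 normal samples, without tumor 3 of mouse 42 and without the tumor of mouse 43. Values ran from 0.38 to 0.54 over all 10 arrays left out in turn, with adjusted p from 0.0208 to 0.144. Fosl1 passed in 14 of the 29 alternatives, and its call was lost using the spot median (0.16), in the authors' deposited table (0.30), and with the mouse left out of the model (0.38) or as a random block (0.39).

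Fosb, a Fos protein with a truncated splice form known as ΔFosB, read 10.66 to 10.90 in the normal samples and 10.65 to 11.13 in the tumors. Only 3 of 7 tumors exceeded their own normal sample. The difference was 0.08 ± 0.11 (limma adjusted p = 0.597; 95% interval -0.18 to 0.33). A second Fosb probe (mMC019147) was above background on 2 arrays, both of tumors, and was not tested.

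Fosl2 encodes Fra-2, the other Fos protein without the transactivation domain of c-Fos. Its brightest probe (mMR028169) gave 10.91 to 11.09 in the normal samples and 10.93 to 11.46 in the tumors, a difference of 0.17 ± 0.11 (limma adjusted p = 0.232; 95% interval -0.08 to 0.42). Its other probes pointed the other way, at -0.14 ± 0.08 (mMC012724) and -0.18 ± 0.08 (mMC020025). With every probe tested in limma their adjusted p was 0.154 and 0.0851, so no direction can be given for Fosl2.

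Atf3 (probe mMC009367) is a stress-induced bZIP factor that pairs with Jun proteins and as a homodimer represses transcription. Its log2 intensity was 9.35, 9.40 and 9.61 in the normal samples of mice 41, 42 and 43, and 9.83 to 10.17 with a median of 9.95 in the tumors. No tumor reached down to the normal samples. Atf3 was 0.54 ± 0.11 higher (1.45-fold; limma adjusted p = 0.00279; 95% interval 0.30 to 0.78). The tumors of mouse 41 exceeded their normal sample by 0.60 to 0.80, those of mouse 42 by 0.50 to 0.77, and the tumor of mouse 43 by 0.22. When spots were summarised by their median, not their mean, the difference was 0.28, and with the authors' deposited table it was 0.31, neither of which passed. Adjusted p was 0.000819 to 0.524 over the 29 alternatives.

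Egr1 (probe mMC010986) is a zinc finger factor induced through serum response factor, as Fos is. Its normal samples were spread widely, at 10.74 in mouse 41, 11.33 in mouse 42 and 10.22 in mouse 43, and the tumors ran from 10.77 through a median of 11.43 to 12.21. The groups overlapped. Within each mouse every tumor was above the normal sample, by 0.44 to 0.69 in mouse 41, by 0.12 to 0.89 in mouse 42 and by 0.56 in mouse 43.

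Egr1 was 0.54 ± 0.15 higher with the mouse as a block (1.45-fold; limma adjusted p = 0.0145). It did not pass with the mouse left out of the model (0.69) or as a random block (0.67), without the normal sample of mouse 41 (0.51, adjusted p = 0.0694) or of mouse 42 (0.58, adjusted p = 0.0522), or with the spot median (0.16) and the authors' deposited table (0.091). Over the 29 alternatives the difference was 0.091 to 1.09 and adjusted p was 0.0041 to 0.892.

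Ier3 (probe mMC012054), also known as IEX-1, is a small stress-induced protein that affects cell survival and is a target of NF-κB. It had the largest difference of the 10 genes. The normal samples read 10.06, 10.50 and 9.98 in mice 41, 42 and 43. The tumors read 11.61, 11.42 and 11.66 in mouse 41, 11.72, 12.05 and 12.39 in mouse 42, and 12.13 in mouse 43. The lowest tumor was well above the highest normal sample. Ier3 was 1.68 ± 0.16 higher (3.21-fold; limma adjusted p = 6.6e-05), with a 95% interval from 1.32 to 2.04. The difference from the own normal sample was at least 1.22 in every tumor and reached 2.15 in mouse 43.

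**Figure D2:**
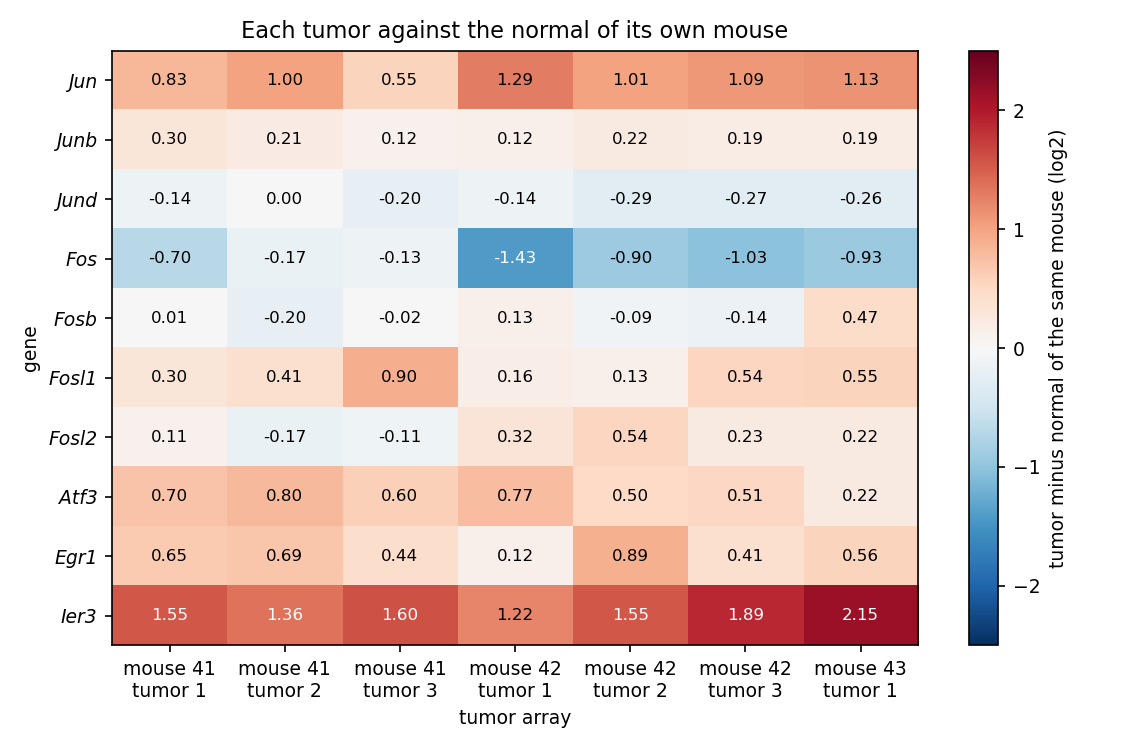
Each tumor minus the normal sample of the same mouse, in log2 units written in each cell and shown by colour from blue (lower) to red (higher), for the 10 genes and 7 tumors. All 7 tumors are above 0 for Ier3, Jun, Atf3, Egr1, Fosl1 and Junb and below 0 for Fos, where the tumors of mouse 42 reach -1.43 and tumors 2 and 3 of mouse 41 stay at -0.17 and -0.13.

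**Figure D3:**
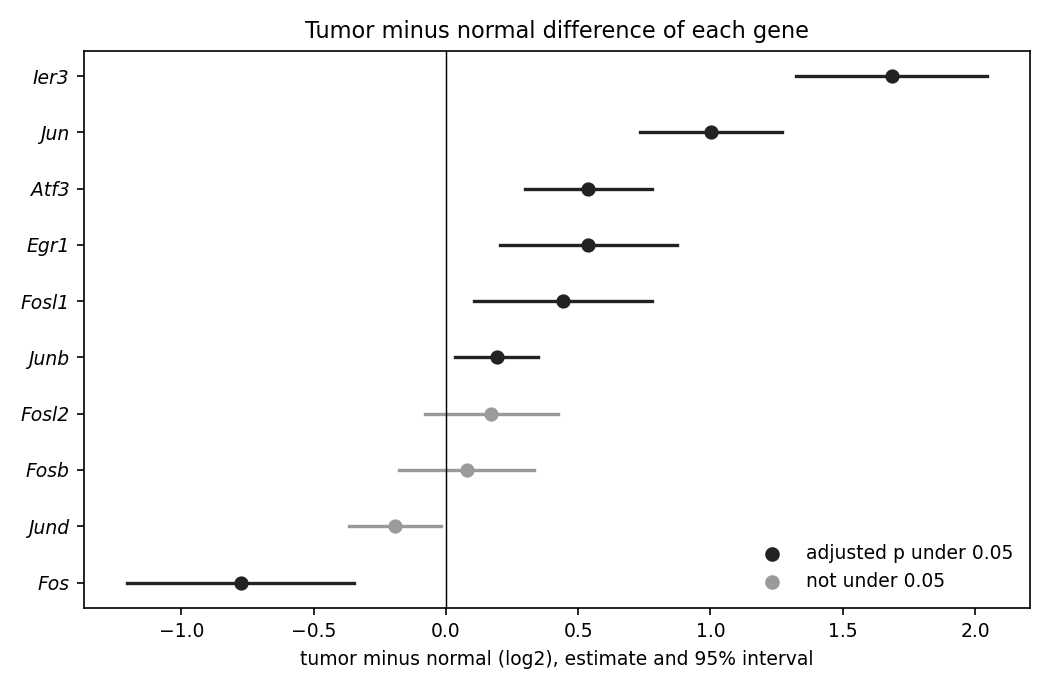
Tumor minus normal difference of the 10 genes in log2 units with its 95% confidence interval from limma (7 tumors and 3 normals, mouse as a block). The intervals of Ier3 and Jun lie farthest above 0. That of Fos lies below 0, from -1.21 to -0.35. The interval of Jund, which did not pass after adjustment, also lies below 0, from -0.37 to -0.019.

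Sessions were set by splitting the scan times of day in the headers at their largest gap. The earlier session held 6 arrays, 3 of them normal, and the later session 4 arrays, all tumors. The later arrays are the ones whose scan names mark them as redipped or rescanned. Only the earlier session holds both tissues, and its contrast rests on mice 41 and 42, since the tumor of mouse 43 was scanned in the later one. Within it Jun was 0.86 higher, Ier3 1.71 and Atf3 0.59, and all of these passed in limma (adjusted p 0.0295, 0.0138 and 0.0285). Fos was at -0.68 (adjusted p = 0.108), Egr1 at 0.49 (0.0504), Fosl1 at 0.58 (0.109) and Junb at 0.20 (0.236), none of which passed with 6 arrays, while the number of genes that passed as higher fell to 1637 from 3746.

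The upstream sequences of the 4 genes whose tumor and normal samples did not overlap are shown because these genes moved in opposite directions. RefSeq's table for GRCm38.p6 held 8 of the 10 genes, without Fosl1 and Egr1. Each sequence is the 250 bases before the gene start, 5′ to 3′ on the gene's strand: Fos chr12:85473640-85473889 (+), Jun chr4:95052223-95052472 (-), Atf3 chr1:191183334-191183583 (-) and Ier3 chr17:35821463-35821712 (+). Capitals mark a match to a motif: TGACGT, the core of a cAMP response element, in Fos and on the other strand (ACGTCA) in Atf3; TGACNTCA, the variant AP-1 element of Jun; and GGAATTTCC, an NF-κB motif, in Ier3.
Fos: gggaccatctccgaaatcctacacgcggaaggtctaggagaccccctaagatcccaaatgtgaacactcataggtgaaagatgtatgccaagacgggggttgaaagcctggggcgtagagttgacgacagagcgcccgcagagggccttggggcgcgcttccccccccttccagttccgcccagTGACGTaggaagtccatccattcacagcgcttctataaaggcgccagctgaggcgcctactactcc
Jun: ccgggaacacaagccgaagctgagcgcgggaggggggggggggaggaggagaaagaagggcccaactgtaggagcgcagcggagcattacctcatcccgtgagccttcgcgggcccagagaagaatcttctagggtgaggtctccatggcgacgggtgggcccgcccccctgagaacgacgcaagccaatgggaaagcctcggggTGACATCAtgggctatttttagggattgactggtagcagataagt
Atf3: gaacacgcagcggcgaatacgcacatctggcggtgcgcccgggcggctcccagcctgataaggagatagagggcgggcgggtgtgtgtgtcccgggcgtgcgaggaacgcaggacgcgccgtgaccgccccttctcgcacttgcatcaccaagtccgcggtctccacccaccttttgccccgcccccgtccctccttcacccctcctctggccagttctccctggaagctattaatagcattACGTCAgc
Ier3: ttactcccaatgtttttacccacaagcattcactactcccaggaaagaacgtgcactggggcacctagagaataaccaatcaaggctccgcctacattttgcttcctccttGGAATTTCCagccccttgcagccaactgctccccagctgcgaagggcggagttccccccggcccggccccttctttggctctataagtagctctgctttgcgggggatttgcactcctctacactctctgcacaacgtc
The match lies 66 to 61 bases before the start in Fos, 45 to 38 in Jun, 8 to 3 in Atf3 and 139 to 131 in Ier3. Fos also holds TATAAA, 33 to 28 bases before its start. Of 32536 promoter windows of the same length, read on both strands, 6.5% hold TGACGT, 7.43% hold TGACNTCA, 0.289% hold GGAATTTCC and 12.3% hold TATAAA. The shorter AP-1 element TGANTCA, the CArG box of serum response factor and the TCF motifs CTTTGAA and CTTTGAT matched in 0 of the 8 windows, and in 6.73%, 1.48%, 4.47% and 3.21% of all windows. Sites more than 250 bases upstream were not searched, so a motif absent here can lie outside the window. TGACGT and TGACNTCA can overlap in 1 site. The motifs were chosen after these windows had been read, and a match is a run of letters and not a measured binding site.

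Mouse 42 and mouse 41 each gave 3 tumors, which allows their tumors to be compared. The mouse and its sex cannot be told apart. Each side is 1 animal, so the SE and p reflect spread between tumors within a mouse and not between mice. Tumors 1 and 2 of mouse 42 and tumor 2 of mouse 41 were scanned in the later session. In limma 0 of the 10 genes passed, against 0.221% of all genes tested. At an unadjusted p under 0.05 there were 3, against 17.3% of all genes. These were Ier3 (0.49 ± 0.17 higher in mouse 42, adjusted p = 0.215), Egr1 (0.46 ± 0.19, adjusted p = 0.271) and Junb (0.26 ± 0.09, adjusted p = 0.208). For each of the 3 the tumors of mouse 42 all lay above those of mouse 41, as for 12% of all genes, and 0 of the 10 genes had all of them below, against 10.5%. Non-overlap in either direction was found for 22.4% of all genes.

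The rise or fall itself was compared between these mice as the difference of their tumor minus normal differences, with each single normal sample taken to vary as the tumors do. In limma 0 of the 10 genes passed, against 0.393% of all genes, and 0 had an unadjusted p under 0.05, against 7.14%. The fall of Fos in mouse 42 differed most from that in mouse 41, by -0.78 ± 0.39 (unadjusted p = 0.0785, limma adjusted p = 0.731). Its 95% interval, from -1.68 to 0.11, takes in both no difference and one larger than the fall itself. For Ier3 the interval was -0.73 to 0.84 and for Jun -0.30 to 0.97.

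Genes whose array profiles most resembled those of Fos and Ier3 were sought among 9953 named genes above background on all 10 arrays, by the root mean square distance between log2 profiles centred on their mean. Closest to Fos were Insig1, which retains the sterol sensor in the endoplasmic reticulum (distance 0.12), Atp5j, a subunit of ATP synthase (0.15), and Dhx32, a helicase-like protein (0.19). Closest to Ier3 were Socs3, the inhibitor of cytokine signaling through STAT3 (0.21), Gng10, a G protein subunit (0.23), and Pitpnc1, a phosphatidylinositol transfer protein (0.25). Insig1 was -0.89 ± 0.14 in tumors and Socs3 1.53 ± 0.19, and both passed in limma (adjusted p 0.000932 and 0.000241). These genes were picked by their profiles over the same 10 arrays, so their direction and passing follow largely from the choice. Insig1, Atp5j, Dhx32 and Pitpnc1 lost their calls when spots were summarised by the median and also in the authors' deposited table.

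Other genes of the pathway are described by lists, each set beside the 25.8% of all genes that were higher and the 23.8% that were lower. The lists were written with earlier results of these data known, so their shares describe the genes and are not a test. Of 22 tested other AP-1, ATF and Maf bZIP factors, 13 were higher (59.1%), 3 were lower (13.6%) and 6 did not pass, with a median difference of 0.42. Higher were Crem (1.24 ± 0.12), which binds cAMP response elements, Mafg (1.46 ± 0.17), a small Maf partner of Nrf2, and Creb5 (0.91 ± 0.12), a relative of Atf2. Creb5 was above background in 1 of the 3 normal samples and in all 7 tumors, so its difference depends on a dim baseline, and it was 2.03 in the authors' deposited table. Creb3l1, an endoplasmic reticulum stress transducer, fell by 1.84 ± 0.11, with tumors at 8.07 to 8.60 and normal samples at 10.18 to 10.29.

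Of 39 tested other immediate-early genes, 12 were higher (30.8%), 8 lower (20.5%) and 19 did not pass, with a median difference of 0.14. The list thus stood near the shares of all genes in both directions. Ier5l (1.18 ± 0.10), a relative of Ier5, Ccn2 (1.34 ± 0.13), the connective tissue growth factor, Gem (1.41 ± 0.14), a small GTP-binding protein, and Nr4a2 (0.93 ± 0.10), an orphan nuclear receptor, rose in tumors. Ccn2 was at 0.54 with the spot median and 0.82 in the authors' deposited table, where Ier5l was at 2.08 and Gem at 2.19, and all of these values passed.

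Upstream of AP-1, 1 of 29 kinases and ternary complex factors was higher (3.45%), 10 were lower (34.5%) and 18 did not pass, with a median of -0.13. The one that rose was Elk3 (1.18 ± 0.10), a ternary complex factor that acts with serum response factor on genes such as Fos. Mapk10, the JNK3 kinase, fell by 0.74 ± 0.08, Map3k5, the stress kinase ASK1, fell by 0.55 ± 0.07, and Mapk13, the p38δ kinase, fell by 1.31 ± 0.18.

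Genes known as AP-1 targets formed the list with the largest median, 1.25: of 33 tested, 24 were higher (72.7%), 2 were lower (6.06%) and 7 did not pass. With the spot median 16 were higher and 1 lower, when 1299 of all genes were higher and 1358 lower. Mmp10, a stromelysin that degrades matrix, was 4.03 ± 0.31 higher, from 8.56 to 9.08 in normal samples to 12.36 to 13.87 in tumors. Timp1, an inhibitor of such proteases, was 2.34 ± 0.18 higher, Hmox1, the heme-degrading stress enzyme, 2.20 ± 0.14 and Mmp14, a membrane-bound collagenase, 1.71 ± 0.10. These genes are also expressed in fibroblasts, macrophages or neutrophils, and other factors control them too.

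Of 18 tested cofactors and modifiers of Fos and Jun proteins, 9 were higher (50%), 3 lower (16.7%) and 6 did not pass, with a median of 0.22. Nfatc4, a member of the NFAT family that binds DNA together with AP-1, was 1.77 ± 0.15 higher, Trib2, a pseudokinase, 1.63 ± 0.23, and Apex1, the repair enzyme Ref-1 that keeps Fos and Jun reduced, 0.93 ± 0.14. Ncoa1, a nuclear receptor coactivator, fell by 0.76 ± 0.10. Maff, Jdp2 and Batf each stood in 2 lists. With the spot median Elk3, Map3k5, Mmp14, Timp1, Trib2 and Ncoa1 did not pass, at 0.44, -0.19, 1.16, 0.92, 1.12 and -0.52. In the authors' deposited table Map3k5 (-0.42), Mmp14 (1.06), Trib2 (1.33) and Ncoa1 (-0.60) did not pass either, while Timp1 passed at 1.38.

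**Figure D4:**
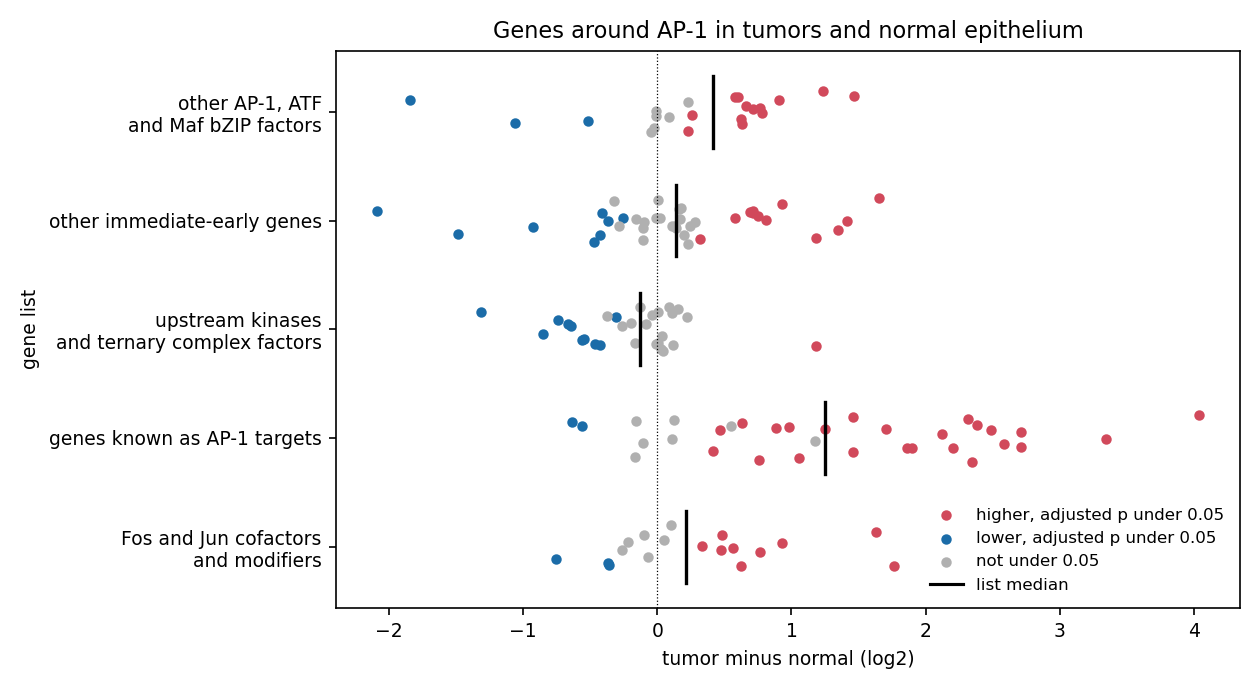
Tumor minus normal difference in log2 units (horizontal axis) of each tested gene of the 5 pathway lists (vertical axis). Points are red for genes higher in tumors, blue for lower and grey for not passed, and black bars are list medians, which run from -0.13 for upstream kinases to 1.25 for known AP-1 targets.

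The labelled epithelium carried its markers: all 12 colon epithelial markers were tested, of which 8 were lower and 1 higher in tumors, with summed linear intensity of 159894 to 162391 in normal samples and 117498 to 156479 in tumors. Markers of other cells moved with the same contrast. Fibroblast and matrix markers were higher for 10 of 11 tested (sums of 11471 to 16344 in normal samples and 31110 to 62388 in tumors), neutrophil markers for 9 of 10 (2740 to 7137, and 9480 to 19173), macrophage markers for 7 of 8 (4472 to 5788, and 11836 to 18635) and endothelial markers for 9 of 11 (1862 to 2831, and 3273 to 5486). T cell markers were higher for 2 of 9 (3767 to 3839, and 4038 to 5434). B and plasma cell markers were lower for 3 of 6 (4658 to 7391, and 1898 to 10271), and smooth muscle markers for 5 of 10 (4764 to 10296, and 3405 to 8220). Of the defining markers, the neutrophil gene Elane and the B cell genes Blk and Ms4a1 were on the array but did not pass the background filter. Their part in the differences of the 10 genes was not tested. In such bulk tissue, fewer cells of a type and less RNA per cell cannot be told apart.

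The tumors with the highest neutrophil sums, that of mouse 43 (19173) and tumor 3 of mouse 42 (17056), were also those with the highest Ier3, 12.13 and 12.39. The order did not hold in the other tumors of mouse 42. Tumor 1 had a neutrophil sum of 14029 with Ier3 at 11.72, and tumor 2 had 10298 with 12.05. Tumors 1, 2 and 3 of mouse 41 had neutrophil sums of 9480, 9543 and 11101 with Ier3 at 11.61, 11.42 and 11.66. Macrophage sums were 11836 in the tumor of mouse 43 and 15907, 18635 and 18632 in tumors 3, 1 and 2 of mouse 42. In tumors 1, 2 and 3 of mouse 41 they were 15566, 16893 and 11956. The part of these cells in the level of Ier3 was not tested. Fos was highest in the normal sample of mouse 42 and lowest in the tumor of mouse 43. These same arrays had squamous epithelial markers at a summed intensity of 19449 and 28883, against 1972 to 2885 on the other 8 arrays. The part of squamous tissue in these values was not tested. Without both arrays and with the mouse as a block, the contrast rests on mouse 41 alone, with 1 normal sample and 3 tumors. Fos was then at -0.33, the difference of mouse 41 given above, and did not pass. With the mouse left out of the model, all 8 remaining arrays enter, and Fos was at -0.43 and did not pass, while Jun (1.09), Atf3 (0.54) and Ier3 (1.79) passed in limma.

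**Figure D5:**
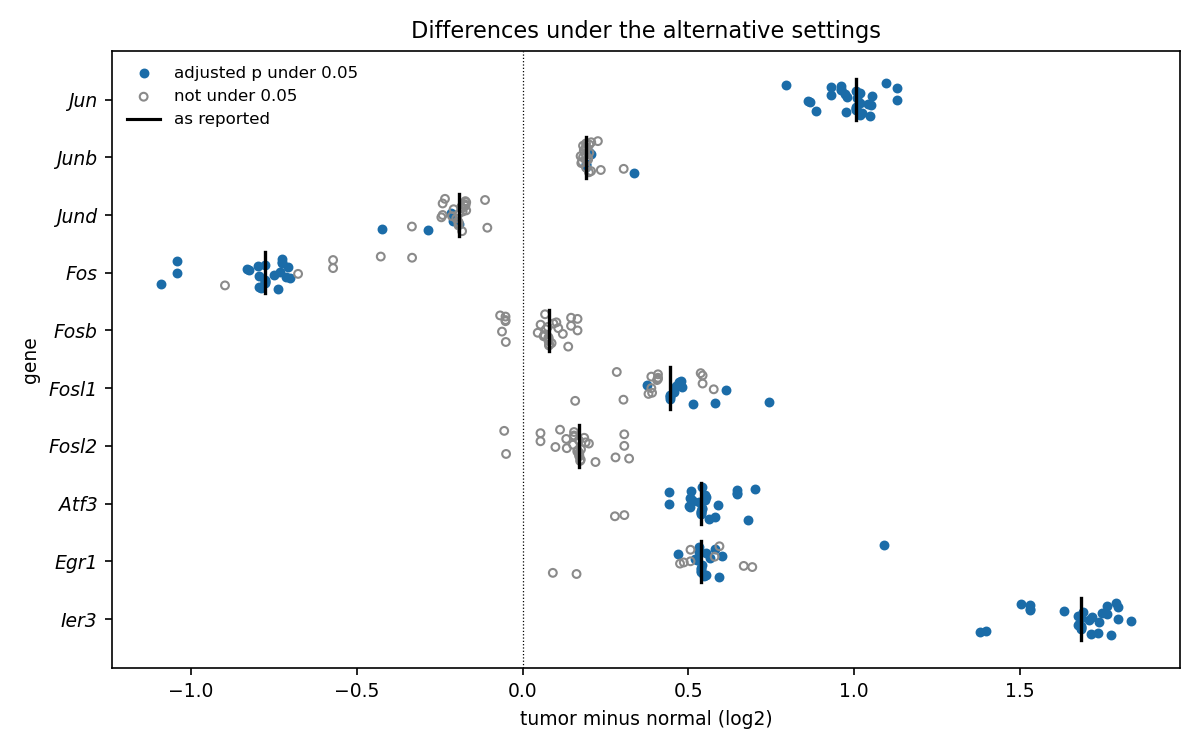
Tumor minus normal difference of each of the 10 genes, in log2 units, as reported and under 29 alternative settings, with filled points for values that passed, open points for those that did not and a black bar for the reported value. Ier3 and Jun passed in all 29, from 1.38 to 1.83 and from 0.79 to 1.13, Junb in 6, and Fosb and Fosl2 lie on both sides of 0.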

How the data were processed

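Labelled RNA of 10 samples was hybridized to one-colour arrays of 38880 spots, scanned at 635 nm with GenePix Pro 4.1.1.4, per the file headers. The deposited scanner files hold the intensity of each spot and its local background, not yet normalized. No genome build is stated for the array annotation in the labels or headers. For the present work, normexp (offset 50) was applied to spot mean and background median, followed by quantile normalization of 34312 gene probes and log2. Between 57.7% and 66.7% of gene probes per array exceeded the 99th percentile of 432 null spots. Genes above it on at least 3 arrays were kept, each by its probe of highest mean, leaving 14508 genes, 11737 of them with a RefSeq symbol. limma 3.58.1 in R 4.3.3 compared tumors with normals, with the mouse as a block since the labels name the animal of each sample. Deviations from group means correlated between the tissues of a mouse at 0.105, -0.0666 and -0.0777 in mice 41, 42 and 43. The fits were tried on simulated data with noise independent between arrays, which cannot show the effect of tumors of a mouse varying together. The authors' deposited value table, which is on the linear intensity scale (spot median minus background, times 1 factor per array), was an alternative on the log2 scale. The text names all 10 genes, of each list up to 4 passing genes of lowest p, and the 3 nearest profiles of Fos and Ier3. The genes and lists were chosen with earlier results of these data known.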

Additional observations from a re-analysis of the deposited data

How the results depend on the processing

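Of 29 alternatives for each of the 10 genes, Jun and Ier3 passed in all 29, Atf3 in 27, Fos in 23, Egr1 in 19, Fosl1 in 14 and Junb in 6, with none of these reversed. The cause of the lost calls was not tested. With the spot median, 1299 genes were higher and 1358 lower. The lists then held 5 higher other bZIP factors and 6 higher and 2 lower other immediate-early genes. They also held 0 higher and 3 lower upstream kinases, 16 higher and 1 lower AP-1 targets, and 3 higher and 0 lower cofactors. Fos (-0.90), Fosl1 (0.16), Junb (0.24), Atf3 (0.28) and Egr1 (0.16) then did not pass. With the authors' deposited table, 1450 genes were higher and 1366 lower, Fosl1 (0.30), Junb (0.30), Atf3 (0.31) and Egr1 (0.091) did not pass, and Fosb turned to -0.051. With an offset of 16 Junb (0.20) did not pass and Jund (-0.28) did, and with no further background correction Junb was at 0.21 and Jund at -0.42 likewise. Junb (0.19) did not pass among genes above background on all 10 arrays or with tumors averaged within each mouse, which left 5 lower other immediate-early genes and 1 lower cofactor. Jund (-0.19) passed with no filter, and Fosl2 turned to -0.050 with the mean of its probes. With no mouse block Fosl1 (0.38), Junb (0.18) and Egr1 (0.69) did not pass and Jund (-0.21) did. With a random mouse block Fosl1 (0.39), Junb (0.18) and Egr1 (0.67) did not pass and Jund (-0.21) did. The scan session as a further block left Junb at 0.20 and Egr1 at 0.47, neither passing. In the earlier session, with fewer samples, 1637 genes were higher and 1589 lower, Fos (-0.68), Fosl1 (0.58), Junb (0.20) and Egr1 (0.49) did not pass, and Fosb was at -0.062. Without mouse 41, Fosl1 (0.39), Junb (0.18) and Egr1 (0.51) did not pass. Without mouse 42, 2052 genes were higher and 1944 lower, and Fos (-0.57), Fosl1 (0.54) and Junb (0.20) did not pass. Without mouse 43, Fosl1 (0.41) and Junb (0.19) did not pass and Fosb was at -0.052. Without the normal sample of mouse 42 and the tumor of mouse 43, which leaves the contrast to mouse 41, 1232 genes were higher and 1276 lower, Fos (-0.33), Fosl1 (0.54), Junb (0.21) and Egr1 (0.59) did not pass, and Fosb (-0.068) and Fosl2 (-0.055) turned. With no block as well, Fos (-0.43), Fosl1 (0.28) and Junb (0.23) did not pass. Leaving out each array in turn gave Fos -1.04 to -0.57, Fosb -0.052 to 0.17, Fosl1 0.38 to 0.54, Junb 0.17 to 0.21, Jund -0.24 to -0.17 and Egr1 0.47 to 0.60. Between the tumors of mice 42 and 41, 75 of 80 values kept their direction and side of the threshold. Fosb turned to -0.047 with median scaling and ran from -0.0017 to 0.14 without each tumor in turn, and with the spot median Fos (0.034), Fosl1 (0.050) and Fosl2 (-0.027) turned. Of 416 values for the 26 other named genes, 389 kept their call, 27 did not pass and 0 reversed.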
